A study of Mus musculus with 8 samples.

Results

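The genes described here are the neurexins Nrxn2 and Nrxn3, the neuroligins Nlgn1, Nlgn2 and Nlgn3, and the leucine-rich repeat transmembrane proteins Lrrtm1, Lrrtm2, Lrrtm3 and Lrrtm4. They were taken by gene symbol from the deposited gene table, where these 9 genes stand among 25834, and all 9 had enough reads to be tested. Hippocampal RNA came from male mice, 4 control and 4 SAP97-cKO, and each mouse gave 1 library. The SAP97-cKO genotype combines floxed alleles of Dlg1, the gene for the synaptic scaffold SAP97, with Cre recombinase under the Nestin promoter, which acts in neural progenitors and therefore in neurons and glia. Control mice were littermates that carried Cre alone, the floxed alleles alone, or neither, and the sample labels do not say which of these each control library came from, nor how old the mice were.

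Neurexins are presynaptic membrane proteins that reach across the cleft and bind partners on the postsynaptic side, among them the neuroligins and the LRRTMs. Neuroligin 1 sits mainly at excitatory synapses, neuroligin 2 at inhibitory synapses and neuroligin 3 at both, while LRRTMs act at excitatory synapses. Neuroligins and LRRTMs end in short tails that can bind PDZ domains of postsynaptic scaffolds of the family to which SAP97 belongs. Variants in several of these genes are associated with autism and schizophrenia.

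None of the 9 genes passed the FDR of 0.25 used in the study when SAP97-cKO hippocampi were compared with control hippocampi by edgeR's quasi-likelihood test. Both neurexins and all 3 neuroligins were nevertheless on the higher side in SAP97-cKO hippocampi, by 15.9% to 25.6% of the control mean. Nlgn1 and Nlgn2 were higher in every SAP97-cKO library than in every control library. Such a separation was seen for 2.78% of all genes tested in the higher direction and 3.47% in the lower. Of the LRRTMs, Lrrtm1 was 13.5% above the control mean and Lrrtm2, Lrrtm3 and Lrrtm4 were within 4% of it. At an unadjusted p under 0.05, edgeR gave 4 of the 9 genes (Nlgn1, Nrxn2, Nlgn2 and Nlgn3), all higher, against 4.73% of the 16251 genes tested that were higher at this p and 7.01% that were lower. At the FDR of 0.25 edgeR called 0.0123% of all genes higher and 0.283% lower. At that FDR limma-voom gave 0 of the 9 genes, with 0.0123% of all genes higher. DESeq2 gave 3 (Nlgn1, Nrxn2 and Nlgn2), where it called 2.91% of all genes higher and 3.84% lower.

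After the authors' resampling to the same depth, libraries held 37388177 to 37416649 counts in controls and 37391907 to 37426572 in SAP97-cKO. Levels are given as CPM, the TMM-scaled count in a library of 1000000 counts. Dlg1 was at 116 ± 9.0 CPM in controls against 64.0 ± 12.6 CPM in SAP97-cKO (SD, n = 4 each). This is a log2 fold change of -0.86 with a standard error (SE) of 0.12 and an edgeR adjusted p of 0.143. Each SAP97-cKO library was below each control library, and the gene-level count covers all exons and not the deleted exon alone. Control 4 stood apart from the other libraries in a way that followed exon length. In control 4 the median gene with under 2 kb of exon was 0.23 above its mean over the 8 libraries on the log2 scale, and the median gene with over 12 kb was 0.32 below it (-0.32), while the other 7 libraries lay between -0.06 and 0.11 in these length classes. Control 4 was the lowest library for 5 of the 9 genes and for 23.7% of all genes tested, so the log2 fold changes of these genes are also given without it.

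The promoters of Nlgn1 and Nlgn2 are shown because these were the genes whose genotype groups did not overlap. The sequences are the 250 bases before each RefSeq start site, read from RefSeq's GRCm38.p6 windows, which hold 6 of the 9 genes. They are written 5′ to 3′ on the strand of the gene, and capitals mark the GC box letters GGGCGG, searched on both strands.
Nlgn1, upstream start, chr3:26331910-26332159, minus strand: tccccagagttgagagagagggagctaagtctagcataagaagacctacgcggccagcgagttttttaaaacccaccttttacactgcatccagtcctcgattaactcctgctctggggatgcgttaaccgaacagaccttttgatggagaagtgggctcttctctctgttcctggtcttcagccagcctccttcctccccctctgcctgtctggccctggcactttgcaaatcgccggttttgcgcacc
Nlgn1, downstream start, chr3:26153987-26154236, minus strand: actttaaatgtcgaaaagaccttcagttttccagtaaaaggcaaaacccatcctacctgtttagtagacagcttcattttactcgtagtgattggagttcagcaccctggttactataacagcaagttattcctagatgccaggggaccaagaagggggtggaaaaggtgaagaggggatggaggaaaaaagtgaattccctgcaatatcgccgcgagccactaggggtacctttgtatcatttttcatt
Nlgn2, chr11:69837785-69838034, minus strand: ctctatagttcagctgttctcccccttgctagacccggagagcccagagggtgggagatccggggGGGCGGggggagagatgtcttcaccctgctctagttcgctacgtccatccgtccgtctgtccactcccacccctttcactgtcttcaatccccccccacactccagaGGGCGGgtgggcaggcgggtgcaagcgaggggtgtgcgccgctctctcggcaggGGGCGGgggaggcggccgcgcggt
The Nlgn2 window held 3 GC boxes and was 67.6% G and C, whereas neither Nlgn1 window held those letters, and they were 53.6% and 43.6% G and C. Over the 32851 RefSeq windows of this length, 32.7% held a GC box and the median share of G and C was 52.4%. None of the 3 windows held TATAAA (12.4% of all windows) or CACGTG (6.02% of all windows). The gene-level counts do not separate transcripts from the 2 start sites of Nlgn1.

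Among the neurexins, Nrxn2 (ENSMUSG00000033768; plus strand of chromosome 19 of GRCm38, 6418731 to 6544169) has 13.812 kb of exon. It had 107, 101, 108 and 93.5 CPM in controls 1 to 4 and 107, 143, 128 and 135 CPM in SAP97-cKO 1 to 4. SAP97-cKO 1 lay at the level of the controls and the other 3 SAP97-cKO libraries lay above all of them, so the groups overlapped by this library. The means were 102 ± 6.54 and 128 ± 15.3 CPM (SD, n = 4 each), with a log2 fold change of 0.33 (SE 0.09, 95% interval 0.13 to 0.53, edgeR adjusted p = 0.322). Without SAP97-cKO 1, the library at the level of the controls, the log2 fold change was 0.41 (edgeR adjusted p = 0.168). This passed the FDR of 0.25, as did 1.58% of all genes in the higher direction in that run. The log2 fold change was 0.29 without control 4 (adjusted p = 0.315). With other single libraries left out the adjusted p reached 0.695.
Nrxn3 (ENSMUSG00000066392; plus strand of chromosome 12, 88722876 to 90334935) spans 1612 kb of the genome with 12.605 kb of exon. It had 208, 194, 184 and 115 CPM in controls 1 to 4 and 209, 199, 197 and 213 CPM in SAP97-cKO 1 to 4. Control 4 was far below all other libraries, and controls 1 to 3 lay within or just under the range of SAP97-cKO. The log2 fold change of 0.22 (SE 0.15, 95% interval -0.11 to 0.56, edgeR adjusted p = 0.559) was 0.07 without control 4 (95% interval -0.06 to 0.20). Most of the difference of Nrxn3 between the group means therefore rested on that single library.

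**Figure D1:**
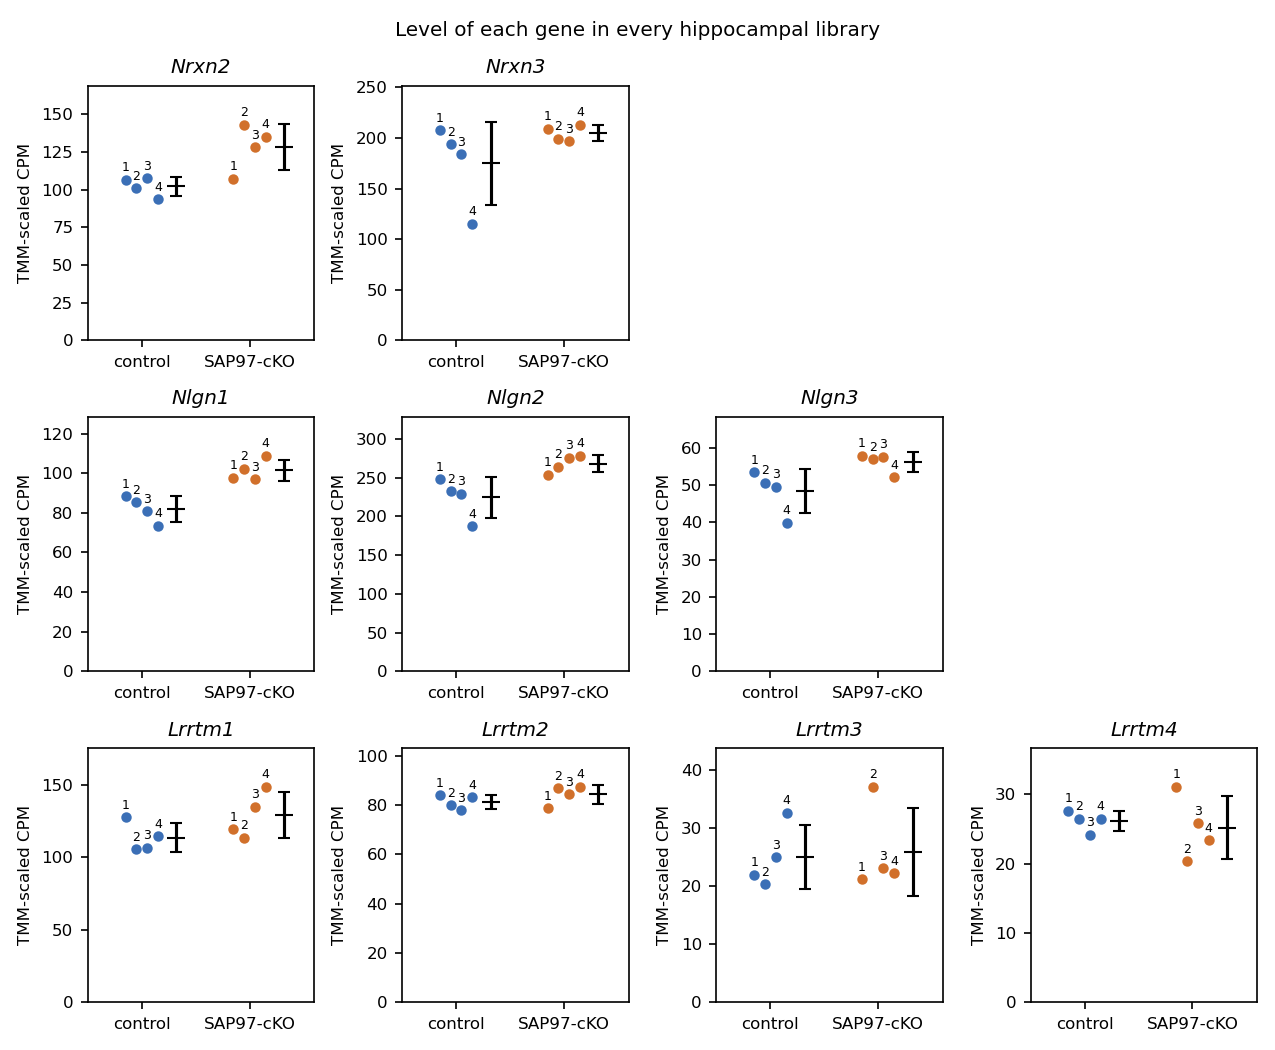
TMM-scaled CPM of the 9 genes in each library, with the replicate number beside each point and the mean ± SD of 4 mice beside each group. Nlgn1 and Nlgn2 show no overlap between control (up to 88.6 and 248 CPM) and SAP97-cKO (from 96.9 and 254 CPM), and control 4 is the lowest library for both neurexins and all 3 neuroligins.

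Nlgn1 (ENSMUSG00000063887; minus strand of chromosome 3, 25426215 to 26332460) encodes the neuroligin of excitatory synapses and has 13.422 kb of exon. It had 88.6, 85.3, 81.0 and 73.5 CPM in controls 1 to 4 and 97.7, 102, 96.9 and 109 CPM in SAP97-cKO 1 to 4. Each SAP97-cKO library was above each control library, as in 2.78% of all genes tested in this direction (exact two-sided permutation test over libraries, p = 0.0286, the smallest possible with 4 against 4). The log2 fold change was 0.31 (SE 0.07, 95% interval 0.14 to 0.47, edgeR adjusted p = 0.302), and without control 4 it was 0.26 (95% interval 0.12 to 0.39, adjusted p = 0.302).
Nlgn2 (ENSMUSG00000051790; minus strand of chromosome 11, 69823122 to 69837784) encodes the neuroligin of inhibitory synapses and is a compact gene, with 5.785 kb of exon in 14.663 kb. It had 248, 232, 229 and 188 CPM in controls 1 to 4 and 254, 264, 275 and 278 CPM in SAP97-cKO 1 to 4. The groups did not overlap, though control 1 and SAP97-cKO 1 were close (exact two-sided permutation test, p = 0.0286). The log2 fold change was 0.26 (SE 0.09, 95% interval 0.06 to 0.45, edgeR adjusted p = 0.355), and it was 0.18 without control 4 (95% interval 0.05 to 0.31, adjusted p = 0.315).
Nlgn3 (ENSMUSG00000031302; plus strand of chromosome X, 101299168 to 101325963), which serves both kinds of synapse, had 53.4, 50.6, 49.6 and 39.9 CPM in controls 1 to 4. The SAP97-cKO libraries had 57.8, 56.9, 57.6 and 52.1 CPM, so that SAP97-cKO 4 lay below control 1 and the other 3 lay above all controls. Its log2 fold change was 0.21 (SE 0.09, 95% interval 0.01 to 0.41, edgeR adjusted p = 0.408), and 0.13 without control 4 (edgeR, unadjusted p = 0.0501). In GENCODE M21, 3823 of the 9271 exon bases of Nlgn3 are shared with the same-strand transcript Gm21986, which held 3 to 12 reads a library, and the sources used here do not say how reads in that stretch were assigned.

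Within each library the 3 neuroligins kept nearly the same proportions. Of the summed neuroligin level per kb of exon, Nlgn2 made up 77.3% ± 0.393 in controls and 77.3% ± 0.748 in SAP97-cKO (SD, n = 4 each). Nlgn1 made up 12.2% ± 0.513 and 12.6% ± 0.557, and Nlgn3 10.4% ± 0.144 and 10.1% ± 0.744. The split between the neurexins was looser, with Nrxn2 at 35.4% ± 4.96 of the pair in controls, where control 4 reached 42.5%, and 36.3% ± 3.23 in SAP97-cKO. These shares depend on the annotated exon lengths, and no test was run on them.

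The LRRTMs are single-pass proteins with an extracellular stretch of leucine-rich repeats. Lrrtm1 (ENSMUSG00000060780; plus strand of chromosome 6, 77242689 to 77257791) had 128, 106, 107 and 115 CPM in controls 1 to 4 and 119, 114, 135 and 149 CPM in SAP97-cKO 1 to 4. Control 1 lay among the SAP97-cKO libraries and the groups overlapped. The log2 fold change was 0.18 (SE 0.10, 95% interval -0.03 to 0.40, edgeR adjusted p = 0.475), and 0.19 without control 4.
Lrrtm2 (ENSMUSG00000071862; minus strand of chromosome 18, 35209003 to 35215024) had the smallest SE of the 9 genes, with 83.9, 80.1, 78.0 and 83.1 CPM in controls 1 to 4 and 78.8, 86.8, 84.4 and 87.4 CPM in SAP97-cKO 1 to 4. With a log2 fold change of 0.05 (SE 0.06, edgeR adjusted p = 0.714), its 95% interval of -0.08 to 0.19 holds no change larger than 1.14-fold upward or to 0.947 of the control level downward. SAP97-cKO 1 lay within the range of the controls, while SAP97-cKO 2, SAP97-cKO 3 and SAP97-cKO 4 lay above all controls by a small margin. Without control 4 the log2 fold change was 0.07.
Lrrtm3 (ENSMUSG00000042846; minus strand of chromosome 10, 63928472 to 64090277) had 21.9, 20.3, 24.9 and 32.6 CPM in controls 1 to 4 and 21.1, 37.03, 23.1 and 22.2 CPM in SAP97-cKO 1 to 4. A single high library in each group, control 4 and SAP97-cKO 2, set most of the spread. The log2 fold change was 0.05 (SE 0.20, 95% interval -0.39 to 0.49, edgeR adjusted p = 0.931), and it was -0.17 without SAP97-cKO 2 and 0.21 without control 4, so that no direction could be given.
Lrrtm4 (ENSMUSG00000052581; plus strand of chromosome 6, 80018877 to 80810143), an LRRTM that binds heparan sulfate proteoglycans, had 27.7, 26.5, 24.2 and 26.5 CPM in controls 1 to 4. The SAP97-cKO libraries had 31.1, 20.4, 25.8 and 23.4 CPM and spread on both sides of the controls. Its log2 fold change was -0.06 (SE 0.12, 95% interval -0.32 to 0.20, edgeR adjusted p = 0.858), with -0.05 without control 4 and 0.03 without SAP97-cKO 2. SAP97-cKO 2 was thus the library with the most Lrrtm3 and the least Lrrtm4 of all 8.
Of the summed LRRTM level per kb of exon, Lrrtm1 made up 61.3% ± 1.96 in controls and 63.6% ± 3.82 in SAP97-cKO, and Lrrtm2 22.1% ± 0.874 and 21.02% ± 1.10 (SD, n = 4 each). Lrrtm3 and Lrrtm4 made up the smaller remainder, at 9.60% ± 1.91 and 6.99% ± 0.359 in controls.

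**Figure D2:**
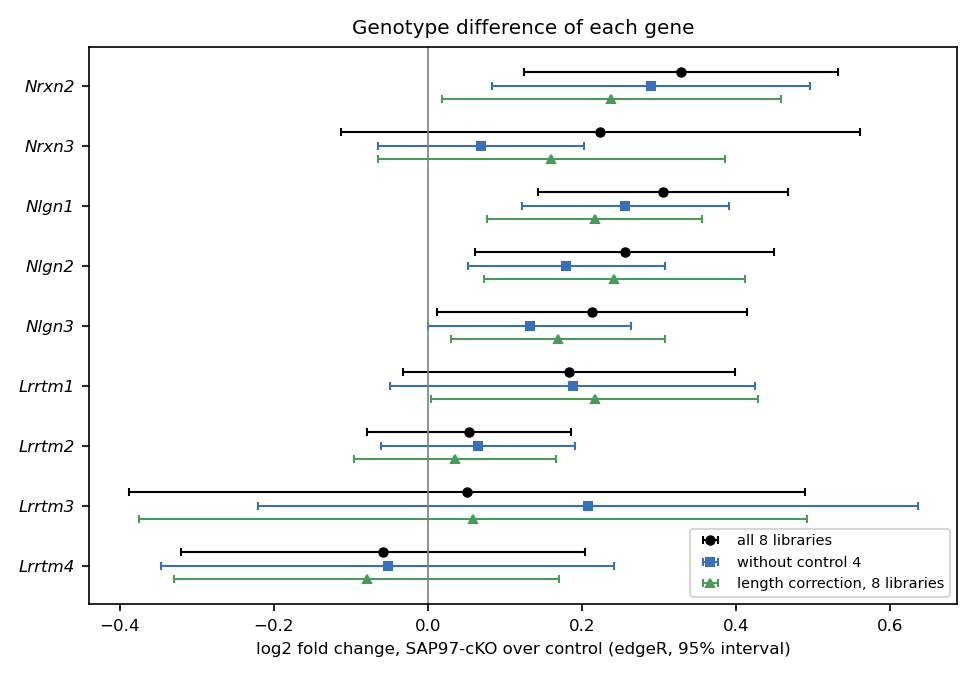
Log2 fold change of each gene, SAP97-cKO over control, with its 95% interval from edgeR for all 8 libraries (black), without control 4 (blue) and with the exon length trend of each library removed (green). The intervals of Nrxn2, Nlgn1 and Nlgn2 lie above 0 in all 3 fits, that of Nrxn3 spans 0 in all 3, and those of Lrrtm2, Lrrtm3 and Lrrtm4 span 0 in all 3. That of Nlgn3 lies above 0 except without control 4, where its lower end is just below 0. That of Lrrtm1 lies above 0 only with the length trend removed.

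Lrrtm1, Lrrtm2 and Lrrtm3 each lie inside an alpha-catenin gene on the opposite strand, Lrrtm1 in Ctnna2, Lrrtm2 in Ctnna1 and Lrrtm3 in Ctnna3. Alpha-catenins link cadherins to actin. The sources used here do not say if reads were counted by strand. Without strand, reads of a gene and of its antisense partner cannot be told apart where their exons coincide. Reads of unspliced host RNA could then also fall on the exons of a gene inside the host, which was not tested. Lrrtm2 shares 95 exon bases (1.58% of its exon length) with Ctnna1, and Lrrtm1 and Lrrtm3 share none with their hosts. The hosts did not pass the threshold either. Ctnna1 had 79.7 ± 11.7 CPM in controls and 67.8 ± 8.62 in SAP97-cKO (SD, n = 4 each), a log2 fold change of -0.23 (SE 0.12, edgeR adjusted p = 0.458). Ctnna2 had 120 ± 6.97 and 128 ± 5.68 CPM, a log2 fold change of 0.09 (SE 0.07, adjusted p = 0.569), and Ctnna3 was near absent at 0.777 to 2.44 CPM. Other antisense neighbours with shared exons held few reads, such as Gm4409 over Lrrtm4 (0 to 1 reads a library) and A830092H15Rik over Nlgn1 (4 to 20 reads).

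Levels of different genes were compared per kb of exon, which makes them CPM per kb and depends on the annotated exon length. Nlgn2 (38.8 ± 4.46 CPM per kb, SD, n = 4) and Lrrtm1 (37.5 ± 3.35) were the most abundant of the 9 genes in control hippocampi, and their libraries overlapped. A wide gap separated them from Nrxn3 (13.9 ± 3.26) and Lrrtm2 (13.5 ± 0.454), which overlapped with each other. Nrxn2 (7.40 ± 0.473) lay below Lrrtm2 and above Nlgn1 (6.12 ± 0.485) without overlap. Nlgn1, Lrrtm3 (5.87 ± 1.28), Nlgn3 (5.22 ± 0.634) and Lrrtm4 (4.27 ± 0.236) formed a low group in which each gene overlapped with its neighbour in the order. The overlaps of Nrxn3 with Lrrtm2, Nlgn1 with Lrrtm3 and Nlgn3 with Lrrtm4 came from control 4 alone. In the other controls these pairs did not overlap, for example Nrxn3 at 14.6 to 16.5 against Lrrtm2 at 12.9 to 13.9. In SAP97-cKO the means ran from 46.3 ± 1.94 for Nlgn2 down to 4.10 ± 0.738 for Lrrtm4. The neuroligin of inhibitory synapses was thus listed at a higher level per kb than that of excitatory synapses in every library.

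**Figure D3:**
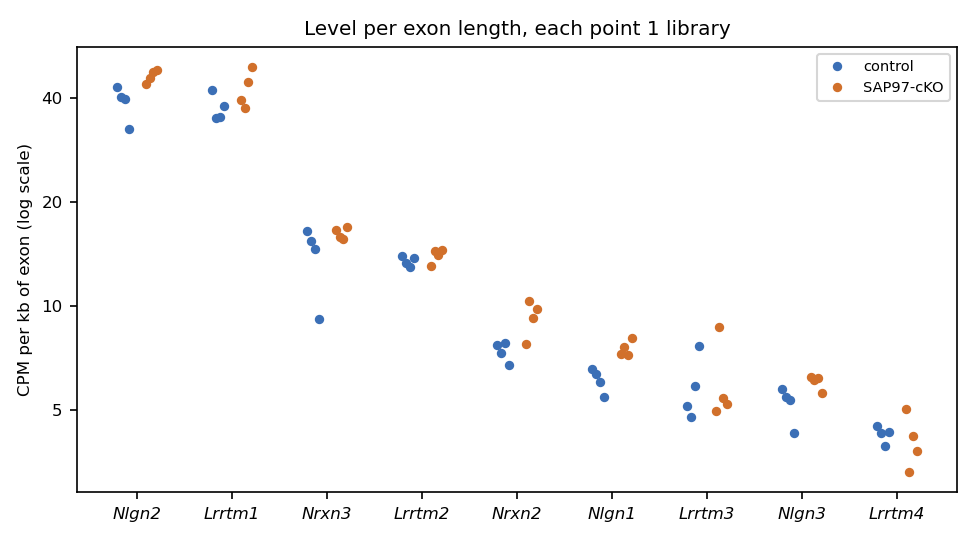
Level of the 9 genes in CPM per kb of exon on a log axis, ordered by the control mean, with each point 1 library. Nlgn2 and Lrrtm1 lie above 32 CPM per kb in every library, while Nlgn1, Lrrtm3, Nlgn3 and Lrrtm4 lie below 9.

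Exon length moved with the fold change over all genes. In the comparison of all 8 libraries, the median log2 fold change was -0.09 for the 2512 genes with under 2 kb of exon and 0.11 for the 868 genes with over 12 kb, of which 10.02% were higher at an unadjusted p under 0.05. Nrxn2, Nrxn3 and Nlgn1 belong to the class over 12 kb, and their log2 fold changes stood 0.22, 0.12 and 0.20 above its median. Nlgn2, with 5.785 kb, stood 0.24 above the median of its class, Nlgn3 0.16 and Lrrtm1 0.20. Without control 4 the medians of the shortest and longest classes were -0.02 and 0.02. With the length trend of each library removed, the log2 fold change was 0.24 for Nrxn2 (95% interval 0.02 to 0.46), 0.22 for Nlgn1 (0.08 to 0.36), 0.24 for Nlgn2 (0.07 to 0.41) and 0.17 for Nlgn3 (0.03 to 0.31). For Lrrtm1 it was 0.22 (0.005 to 0.43), against 0.18 without the correction. None of the 9 genes passed the FDR of 0.25 in edgeR under this correction, where 0.0861% of all genes were higher. At an unadjusted p under 0.05, 5 were higher (Nrxn2, Nlgn1, Nlgn2, Nlgn3 and Lrrtm1), as were 5.46% of all genes. The median of the 9 log2 fold changes was 0.21 in all 8 libraries, 0.18 without control 4 and 0.17 with the correction, and that of all genes tested was -0.01 in all 8 libraries.

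**Figure D4:**
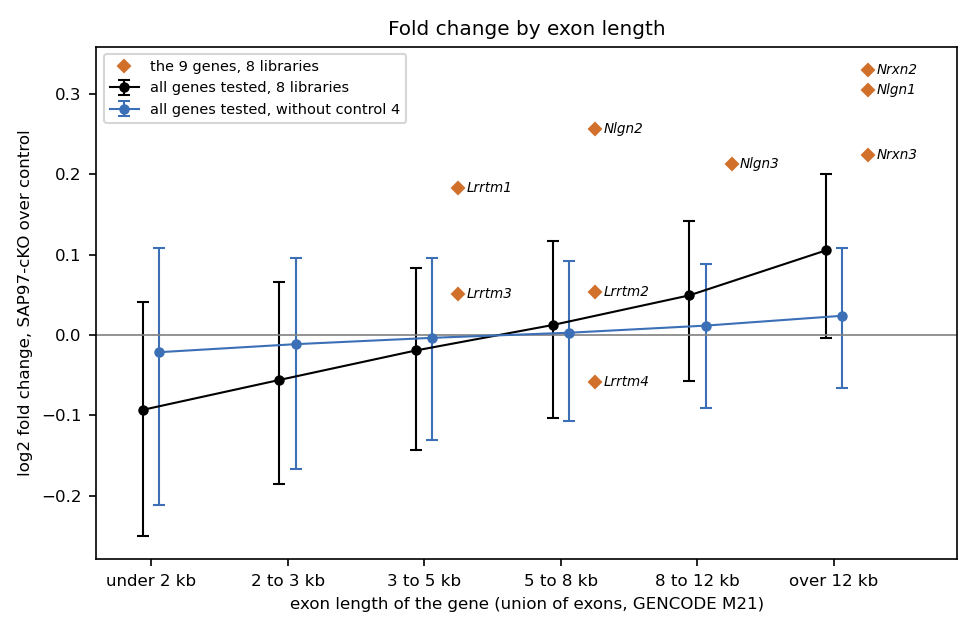
Median log2 fold change (points, with bars from the 25% to the 75% quantile over genes) of all genes tested in 6 classes of exon length, for all 8 libraries (black) and without control 4 (blue), with the 9 genes at their own values as diamonds. The black medians climb from -0.09 to 0.11 and the blue ones from -0.02 to 0.02, and both neurexins, all 3 neuroligins, Lrrtm1, Lrrtm2 and Lrrtm3 lie above the black median of their class.

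Cell type markers were read in the same libraries, since a bulk count cannot tell fewer cells of a type from less RNA per cell. The summed level of 10 neuron markers was 8124 to 8998 CPM in controls and 8469 to 9586 CPM in SAP97-cKO. At an unadjusted p under 0.05 in edgeR, 3 of the 10 were higher and none lower (4.73% and 7.01% of all genes). Of the 10 log2 fold changes 7 were above 0, with a median of 0.04. The 6 oligodendrocyte markers summed to 5462 CPM in control 1 and 7438 to 8797 in the other controls, and to 7720 CPM in SAP97-cKO 1 and 4274 to 4656 in the other SAP97-cKO libraries. All 6 had a log2 fold change below 0, 4 of them at an unadjusted p under 0.05 (7.01% of all genes were lower at this p), with a median of -0.47. Control 1 and SAP97-cKO 1 were thus the low and the high exception of their groups in oligodendrocyte markers. Removal of either library brought neurexin and neuroligin calls past the threshold, and a link with the markers was not tested. Without control 1, Nlgn1 (adjusted p = 0.179), Nlgn2 (0.193), Nrxn2 (0.198) and Nlgn3 (0.231) passed the FDR of 0.25 in edgeR, as did 4.34% of all genes in the higher direction and 5.83% in the lower. Without SAP97-cKO 1, Nrxn2 (0.168) and Nlgn1 (0.190) passed it, as did 1.58% of all genes in the higher direction and 2.73% in the lower.
The 7 meningeal fibroblast markers summed to 227 to 434 CPM in controls and 148 to 240 CPM in SAP97-cKO. At the FDR of 0.25, 3 of them were lower, against 0.283% of all genes. The 6 choroid plexus markers summed to 167 to 6667 CPM in controls and 94.1 to 2296 CPM in SAP97-cKO, and all 6 log2 fold changes were below 0 (median -1.42), none at an unadjusted p under 0.05. The 6 endothelial markers summed to 181 to 209 CPM and 137 to 234 CPM, and all 6 were below 0 (median -0.22), none at that p. Of the 6 astrocyte markers (4910 to 5605 and 5180 to 6484 CPM), 5 were above 0 and 2 were higher at that p, against 4.73% of all genes. Oligodendrocyte precursor (243 to 307 and 251 to 303 CPM, 1 of 4 higher at that p) and microglia markers (354 to 460 and 343 to 439 CPM, 0 of 6 at that p) lay on both sides of 0. The summed levels overlapped between the groups for all 8 marker lists, and no marker of any list was at 0. The part of these differences in the levels of the neurexins, neuroligins and LRRTMs was not tested.

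Partners of the same adhesion system were read from a list of 60 genes, all of which were tested. None passed the FDR of 0.25 in edgeR or limma-voom. At an unadjusted p under 0.05 in edgeR, 16 were higher and 1 was lower (4.73% and 7.01% of all genes). DESeq2 called 15 higher and 1 lower at the FDR of 0.25 (2.91% and 3.84% of all genes). In all, 49 of the 60 log2 fold changes were above 0, with a median of 0.17, while 47.2% of all genes tested were above 0. Without control 4, 16 were higher at that p and the median was 0.13, and with the length correction 13 were higher and the median was also 0.13.
All 5 membrane proteins that bind neuroligins or LRRTMs were above 0, 3 of them at an unadjusted p under 0.05. Ptprs, a receptor phosphatase that LRRTM4 reaches through heparan sulfate, was at 365 ± 35.0 CPM in controls and 449 ± 46.1 in SAP97-cKO (log2 fold change 0.30, SE 0.10, edgeR adjusted p = 0.347). Of the 8 other membrane partners of neurexins, 7 were above 0 and 4 at that p. Grid1, a delta glutamate receptor that binds neurexins through cerebellins, had 67.9 to 78.2 CPM in controls and 84.1 to 92.9 CPM in SAP97-cKO (log2 fold change 0.27, SE 0.06, edgeR adjusted p = 0.297). The latrophilin Adgrl2 had 32.9 to 40.7 and 41.9 to 56.0 CPM (log2 fold change 0.37, SE 0.10, adjusted p = 0.330).
Secreted ligands of neurexins lay on both sides of 0. Of 9 cerebellins, C1q-like proteins and neurexophilins, 6 were below 0 and 3 above, and Cbln2, a cerebellin, was the single partner that was lower at an unadjusted p under 0.05 (12.6 ± 3.69 CPM in controls and 8.75 ± 1.17 in SAP97-cKO, log2 fold change -0.52, SE 0.19, edgeR adjusted p = 0.371). All 7 intracellular partners were above 0, 2 of them at that p. The 3 splicing factors of the Khdrbs family, which choose neurexin splice forms, lay between -0.00085 and 0.01.
Among 26 other trans-synaptic adhesion genes, 24 were above 0 and 7 reached an unadjusted p under 0.05, all higher. Ntng2, a netrin-G, had the smallest p of the list, with 20.1 to 22.9 CPM in controls and 25.4 to 30.5 CPM in SAP97-cKO (log2 fold change 0.36, SE 0.08, edgeR adjusted p = 0.293). Lrrc4b, a postsynaptic ligand of receptor phosphatases, had 155 to 174 and 177 to 204 CPM (log2 fold change 0.23, SE 0.07, adjusted p = 0.341). Slitrk1 (66.6 to 77.5 and 81.6 to 99.3 CPM), Slitrk5 (70.2 to 89.8 and 82.7 to 111) and the teneurin Tenm2 (69.2 to 122 and 111 to 148) completed the 8 higher partners with the smallest p. The groups overlapped for Slitrk5 and Tenm2 and not for Slitrk1.

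For each of the 9 genes, the tested gene with the most similar profile over the 8 libraries was found by Pearson's r of log2 CPM among 16242 other genes. It was Tmx4 for Nrxn2, Sh3pxd2a for Nrxn3, Mn1 for Nlgn1, Vps53 for Nlgn2, Eepd1 for Nlgn3, Camkv for Lrrtm1, Basp1 for Lrrtm2, Gm15663 for Lrrtm3 and Zmat4 for Lrrtm4, with r from 0.950 to 0.997. These are the largest of many correlations over 8 points that share the length trend of control 4, and they are given as a description. Mn1, most alike to Nlgn1, had 21.2 ± 1.48 CPM in controls and 26.4 ± 1.09 in SAP97-cKO (SD, n = 4 each), a log2 fold change of 0.31 (SE 0.07, edgeR adjusted p = 0.293). Vps53, most alike to Nlgn2, had 75.9 ± 5.10 and 83.6 ± 1.99 CPM, a log2 fold change of 0.14 (SE 0.06, adjusted p = 0.430).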

How the data were processed

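Alignment by the authors was with STAR 2.5.3a on mm10 (GRCm38.p5). With PORT, reads of ribosomal and mitochondrial sequence were then taken out, libraries were resampled to the same depth and reads were counted on Ensembl genes. The deposited values are whole-number counts per gene. The deposited table also holds the authors' own fold changes, p-values and q-values, which were not used. The groups follow the sample titles, and each library is 1 mouse.

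Genes were kept with filterByExpr (at least 10 counts, 15 in total) and 16251 remained. Genotypes were compared by the quasi-likelihood method in edgeR 4.0.16 (R 4.3.3) after TMM scaling, and p-values were adjusted by Benjamini-Hochberg over every gene tested. The standard error is the log2 fold change over the square root of F, and intervals are 95%. Exact two-sided permutation tests of single genes ran over 70 assignments. Alternatives were DESeq2 1.42.0, limma-voom (limma 3.58.1), DESeq2 size factors, no scaling, no filter, an FDR of 0.05, the replicate number as a block and each library left out. A correction for exon length was added after the data had been seen. It estimates each library's trend on exon length by lowess and places it in the offsets. The tests were also run on simulated counts. Those counts held no trend on exon length, so they cannot check the tests under the trend seen in control 4. Depth is the total count per library, and intervals cover the spread between libraries at that depth. With 1 library per mouse, differences between mice and between library preparations cannot be told apart.

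Exon lengths and positions are from GENCODE M21 (GRCm38), which matched 25696 of 25834 gene identifiers. The genes named are the 9 genes, Dlg1, the alpha-catenins, up to 8 partner genes per direction with the smallest p under 0.05, and the most similar gene of each. Gm21986, Gm4409 and A830092H15Rik were named for their overlap. The 9 genes, the partner list and the marker lists were chosen with earlier results of these data known. Some partner genes are not reported here one by one. No pair of libraries agreed within sampling noise (9.68 to 72.6 for chi-square per gene). Plots were drawn with matplotlib 3.10.9.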

Additional observations from a re-analysis of the deposited data

Results flagged for a closer look

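In 2 of the 18 groups of 4 libraries (9 genes in 2 genotypes), the library at 1 end stood apart from the other 3 by more than Dixon's 95% critical value of 0.829 for 4 samples, which chance passes in about 1 of 20 groups. Nlgn3 was at 52.1 CPM in SAP97-cKO 4, below the 56.9 to 57.8 CPM of the other SAP97-cKO libraries (ratio 0.838). Lrrtm3 was at 37.03 CPM in SAP97-cKO 2, above the 21.1 to 23.1 CPM of the others (ratio 0.879). No explanation for either was tested.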

How the results depend on the processing

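All 9 genes except Lrrtm3 and Lrrtm4 kept the direction of their log2 fold change in every alternative run. Lrrtm3 ran from -0.17 to 0.21 and Lrrtm4 from -0.17 to 0.031 with single libraries left out, and Lrrtm3 was below 0 without control 1 (-0.0058), without control 2 (-0.035) and without SAP97-cKO 2 (-0.17), while Lrrtm4 was above 0 without SAP97-cKO 2 (0.031). The number of the 9 genes past the FDR of 0.25 was 0 in edgeR and 3 in DESeq2, all higher, and 0 to 4 with single libraries left out. Without control 2, SAP97-cKO 3 or SAP97-cKO 4, edgeR called 0% of all genes in either direction, so a count of 0 there says nothing particular of these genes. The number of partner genes past the FDR of 0.25 was 0 in edgeR. In DESeq2 it was 15 higher and 1 lower (2.91% and 3.84% of all genes). With the length correction it was 1 higher (Ntng2, against 0.0861% of all genes). With single libraries left out it was 0 to 15 higher and 0 to 1 lower. Without control 1 it was 15 higher and 1 lower (Cbln2), against 4.34% and 5.83% of all genes. Without SAP97-cKO 1 it was 8 higher, against 1.58% of all genes. Groups that did not overlap were found for 2 to 4 of the 9 genes, all higher, with single libraries left out, where 3.9% to 7.27% of all genes were higher without overlap. They were 4 without control 1 (7.27% of all genes), without SAP97-cKO 1 (6.82%) or without SAP97-cKO 4 (3.91%). Nlgn1 and Nlgn2 were among them in every run, which adds no evidence. Groups that are apart in all libraries stay apart when a library is left out, except for small changes of scaling. The log2 fold change of Dlg1 was -1.0 to -0.78 with single libraries left out. Dlg1 was not called at the FDR of 0.25 in edgeR without control 2 (adjusted p = 0.424), without SAP97-cKO 3 (0.524) or without SAP97-cKO 4 (0.346). The cause of these differences was not tested.

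The replicate numbers are shared by the genotypes, but nothing in the sources used here ties a number to a litter or day. Same-numbered libraries correlated at -0.06, 0.19, 0.10 and 0.26 in their deviations from the group means, and 3 of 4 controls correlated best with their own number. With the replicate number as a block, 0 of the 9 genes and 1 partner gene (Adgrl2) passed the FDR of 0.25 in edgeR, against 0 and 0 without it. Over all genes the block gave 234 lower and 22 higher in place of 46 and 2. Each of the 9 genes had at least 763 reads in every library. How far depth or the spread between the 4 libraries of a group limited these comparisons was not tested.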
